A study of Homo sapiens with 42 samples.

Results

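The comparison described here is that of medium conditioned by bone marrow stromal cells with plain medium, in leukemia cells that received no drug. It was selected by sample label: the 3 input libraries of vehicle-treated cells in hBMSC-CM were set against the 3 input libraries of vehicle-treated cells in RPMI, 6 of the 42 RNA-seq libraries in all. The cells were MOLM-13, 1 acute myeloid leukemia (AML) line with the FLT3-ITD mutation, an internal tandem duplication in the gene of a receptor tyrosine kinase, and their genotype label is WT. Vehicle (DMSO, the solvent of the drugs) was given for 12 hours in both groups, and both were exposed to cycloheximide, which holds ribosomes on messages, before harvest. RPMI is a standard culture medium with serum, and hBMSC-CM is an equal mix of RPMI and medium conditioned by HS-5, 1 human bone marrow stromal cell line, so the stromal cells were represented by what they release. The remaining libraries hold the heavy polysome RNA of the same cultures and cells given the FLT3 inhibitor quizartinib (3 nM), the mTOR inhibitor everolimus (10 nM) or both (combo). They entered the fit across genes, to which they lent their estimate of the spread, and they appear below where a gene of this comparison was also read in them.

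Stromal cells of the marrow secrete cytokines and growth factors that bind receptors on leukemic cells. Ligands of the IL-6 family act through the shared receptor chain IL6ST and the transcription factor STAT3, whose early targets include the feedback inhibitor SOCS3. Immature myeloid cells that mature along the granulocytic and monocytic paths gain receptors for bacterial peptides and complement fragments, calcium-binding S100 proteins and granule enzymes.

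The 6 libraries held 26.2 to 37.2 M counts each, and 18546 to 21367 genes had at least 1 count. Replicate 3 of hBMSC-CM stood apart. Its log2 CPM (CPM being counts scaled to the size of the library) correlated with those of the other hBMSC-CM replicates at Pearson's r of 0.942 and 0.954 over genes, against 0.979 to 0.985 for the other pairs within a group, and it had the fewest genes with a count. Calls that were lost without it are given with and without it. The AML line was checked against 10 defining markers, and 10 of 10 were above 1 CPM in all 6 libraries. Of 26 stromal markers, 11 were at 0 in all 6 libraries, among them COL3A1, THY1, LUM, DCN, POSTN and PDGFRA, and 17 stayed under 1 CPM in all of them. The summed stromal level, most of it IGFBP7, was 163, 180 and 192 CPM in hBMSC-CM and 162, 174 and 188 CPM in RPMI (two-sided exact permutation p = 0.7, with 0.1 the smallest that 3 against 3 allows). With IGFBP7 so large, this sum cannot show a change in the low markers. THBS1, which passed the test below, had 86, 62 and 42 counts in hBMSC-CM and 5, 5 and 0 in RPMI. FN1 had 17, 28 and 17 counts against 2, 7 and 0. ACTA2 and SPARC lay the other way. ACTA2 was at 4.09 to 7.87 CPM in hBMSC-CM and at 8.13 to 10.3 CPM in RPMI, and SPARC had 0, 0 and 0 counts against 5, 4 and 2. The 16 lymphoid and erythroid markers summed to 72.2, 136 and 103 CPM in hBMSC-CM and to 27.8, 56.6 and 38.7 CPM in RPMI (exact permutation p = 0.1), and 12 of the 16 stayed under 1 CPM in all 6 libraries, with CD3G, HBA1 and HBG1 at 0 in each. Nearly all of that sum was NKG7, a granule protein of cytotoxic cells, whose own change did not pass (log2 change 1.34 ± 0.47 (SE), adjusted p = 0.233). With the replicate number as a block NKG7 did pass (1.35, adjusted p = 0.0027). The part of these marker levels in the results below was not tested.

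More genes were higher than lower in hBMSC-CM. Of 12939 genes tested with edgeR, 195 (1.51%) passed a Benjamini-Hochberg adjusted p of 0.05, of which 168 (1.3% of all genes tested) were higher and 27 (0.209%) were lower in hBMSC-CM. An unadjusted p under 0.05 was reached by 970 of the 12939. Of the 168, 137 rose at least 2-fold, 61 at least 4-fold and 28 at least 8-fold, whereas 14 of the 27 fell at least 2-fold and 3 at least 4-fold. The median log2 change was 1.66 among the higher genes and -1.11 among the lower genes, beside -0.01 over all genes tested. For 191 of the 195 genes the 3 values of one medium lay apart from the 3 of the other, against 2087 (16.1%) of all genes tested. The 4 genes with overlapping values, named here for that reason after their values were seen, were TP53INP2, TGFA, MMP19 and LILRA6. Of the 168 higher genes, 36 had a mean below 1 CPM in RPMI, and 158 are annotated as protein coding. Without hBMSC-CM replicate 3, 156 genes passed (145 higher and 11 lower), and 136 of the 195 were among them. The count was lowest, at 105, without RPMI replicate 1, and it was 122 without RPMI replicate 2 and 114 without RPMI replicate 3. With the replicate number as a block, 373 genes passed, 308 higher and 65 lower, all 195 among them. With the spread taken from the 6 libraries alone, 105 passed, 98 higher and 7 lower. Of the 195 genes, 80 passed in all 6 of the fits that left out 1 library. In these bulk libraries a change in the message per cell and a change in the share of cells that carry it cannot be told apart.

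**Figure D1:**
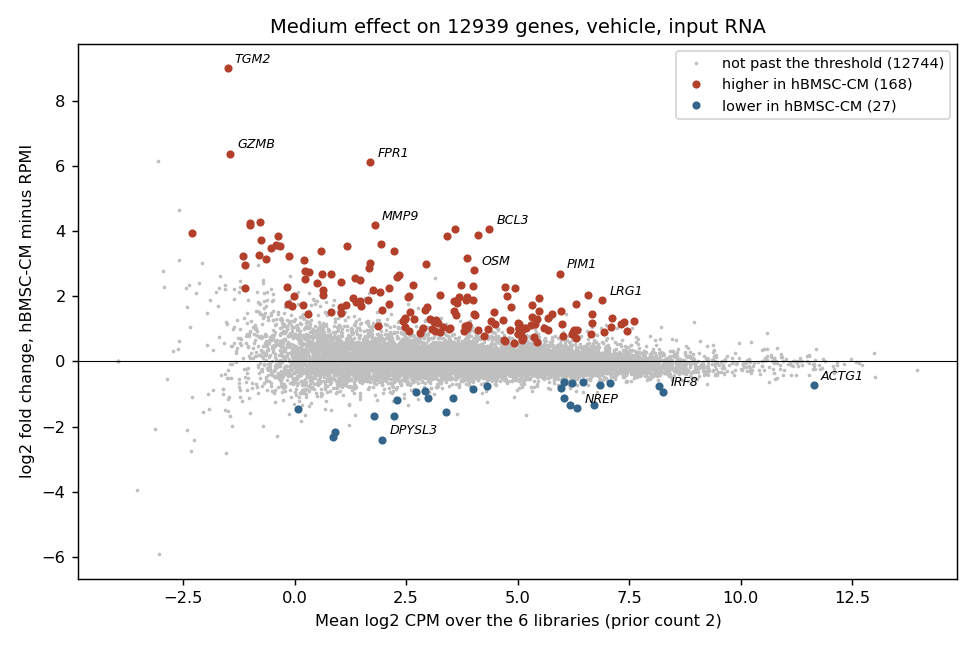
Log2 change between hBMSC-CM and RPMI (vertical axis) against the mean log2 CPM of the 6 vehicle input libraries (horizontal axis) for 12939 genes. The 168 genes that passed as higher are red, the 27 that passed as lower are blue, and the other 12744 are grey. Most red points lie at low or middle levels, and far fewer blue points lie below 0. TGM2 had no count in any RPMI library, so the size of its fitted change is not a bound.

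The 12 genes with the largest rise, among those that reached a mean of 10 CPM in at least 1 group and did not overlap, were FPR1, MMP9, SOCS3, BCL3, SEMA6B, S100A9, ABCA1, S100A8, HP, HSPA7, ADGRG3 and OSM. For the 6 of largest rise with an entry in the promoter table (RefSeq, GRCh38.p14), the 250 bases before the transcription start are printed, to show the sequence before a start of the messages that rose most. Where the table lists several starts (2 for SOCS3 and 3 for S100A8), the one nearest the 5′ end of the gene annotation was taken. The windows of S100A9, ABCA1 and S100A8 end at that 5′ end, whereas those of FPR1, SOCS3 and BCL3 lie inside the annotated gene, which begins further upstream. Capitals mark stretches that match, on either strand, GGG and CC with 5 bases between (NF-kB), TTNNGNAA (C/EBP) or CACGTG (E-box). The searches for TTCNNNGAA (STAT), TGANTCA (AP-1) and ATCAC and CCAC with 1 base between (sterol element) gave no match in these 6 windows. FPR1 covers chr19:51751879-51752128 (minus strand) and BCL3 chr19:44748458-44748707 (plus strand), SOCS3 covers chr17:78359668-78359917 (minus strand), S100A9 chr1:153357604-153357853 (plus strand) and S100A8 chr1:153391074-153391323 (minus strand), and ABCA1 chr9:104928156-104928405 (minus strand).
FPR1: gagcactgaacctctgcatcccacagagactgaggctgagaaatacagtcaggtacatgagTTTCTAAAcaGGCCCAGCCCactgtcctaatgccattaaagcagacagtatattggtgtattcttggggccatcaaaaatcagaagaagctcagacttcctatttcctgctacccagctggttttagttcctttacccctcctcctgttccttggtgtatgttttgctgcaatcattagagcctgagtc
SOCS3: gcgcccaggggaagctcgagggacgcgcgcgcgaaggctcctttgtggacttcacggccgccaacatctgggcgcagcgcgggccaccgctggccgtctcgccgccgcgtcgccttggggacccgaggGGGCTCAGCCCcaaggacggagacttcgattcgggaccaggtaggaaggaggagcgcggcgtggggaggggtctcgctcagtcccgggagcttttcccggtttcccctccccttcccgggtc
BCL3: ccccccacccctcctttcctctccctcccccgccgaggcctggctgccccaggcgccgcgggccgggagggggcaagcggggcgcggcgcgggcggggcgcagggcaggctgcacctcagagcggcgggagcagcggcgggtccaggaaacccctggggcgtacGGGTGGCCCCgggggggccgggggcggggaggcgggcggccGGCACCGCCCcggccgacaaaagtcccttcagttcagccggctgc
S100A9: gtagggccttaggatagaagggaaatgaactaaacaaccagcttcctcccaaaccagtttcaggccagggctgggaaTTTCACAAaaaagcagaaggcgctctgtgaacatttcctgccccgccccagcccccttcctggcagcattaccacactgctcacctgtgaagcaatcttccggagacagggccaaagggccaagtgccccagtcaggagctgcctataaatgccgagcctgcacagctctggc
ABCA1: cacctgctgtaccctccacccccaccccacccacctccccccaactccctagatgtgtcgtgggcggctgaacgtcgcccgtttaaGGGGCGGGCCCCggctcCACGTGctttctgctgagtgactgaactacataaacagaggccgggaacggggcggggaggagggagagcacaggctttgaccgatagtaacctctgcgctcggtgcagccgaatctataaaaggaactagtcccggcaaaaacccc
S100A8: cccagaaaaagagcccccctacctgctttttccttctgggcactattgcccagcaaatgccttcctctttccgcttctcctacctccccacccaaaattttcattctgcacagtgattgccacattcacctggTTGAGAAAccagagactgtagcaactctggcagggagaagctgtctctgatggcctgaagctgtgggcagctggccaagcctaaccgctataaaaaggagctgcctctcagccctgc

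These windows held few of the letters searched. The FPR1 window had 1 NF-kB and 1 C/EBP match, the BCL3 window 2 separate NF-kB matches, and the SOCS3 window 2 NF-kB matches that overlap. The ABCA1 window had 3 overlapping NF-kB matches and 1 E-box, and the S100A8 and S100A9 windows had 1 C/EBP match each. The NF-kB letters are loose: 53.8% of the 27305 windows in the table, 70.0% of those of 8943 tested genes and 74.4% of those of 125 genes that rose held a match. The C/EBP letters were in 33.6%, 22.9% and 32.0% of the same windows, and the STAT letters in 6.74%, 5.42% and 12.8% (16 of 125). The AP-1 letters were in 6.54%, 3.62% and 8.0%, the E-box in 6.48%, 9.23% and 4.0%, and the sterol letters in 0.125%, 0.0783% and 0 of 125. A match is a stretch of letters and not a measured binding site.

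FPR1 (ENSG00000171051, minus strand of chromosome 19, GRCh38, bases 51745172 to 51804115), the receptor for formylated peptides of bacteria and mitochondria, rose most among these genes. It was at 22.8, 40.8 and 21.6 CPM in hBMSC-CM replicates 1, 2 and 3 and at 0.126, 0.833 and 0.271 CPM in RPMI. All 3 hBMSC-CM values were far above the RPMI values, which stayed below 1 CPM. The log2 change was 6.11 ± 0.48 (SE, n = 3 against 3, edgeR adjusted p = 7.74e-11), and 6.29 without hBMSC-CM replicate 3.

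Some other receptors for chemoattractants rose with it. Of 21 measured members of that list, 5 passed as higher and 0 as lower, and the same number passed without hBMSC-CM replicate 3. Of all genes tested, 1.3% passed as higher. The median log2 change over the list was 0.30, with 14 of the 21 above 0 and a lowest value of -1.21. With the replicate number as a block, 6 passed as higher and 1 as lower. Without RPMI replicate 1, RPMI replicate 2 or hBMSC-CM replicate 2, 3 passed. C3AR1, the receptor for the complement fragment C3a, was at 2.86, 3.35 and 3.18 CPM in hBMSC-CM and at 0.353, 0.345 and 0.372 CPM in RPMI (log2 change 3.12 ± 0.50, adjusted p = 0.000168). Its values were close within each group and did not overlap between groups. PTAFR, the receptor for platelet-activating factor, was more abundant, at 22.8, 33.1 and 34.5 CPM against 4.42, 6.43 and 6.87 CPM (2.35 ± 0.34, adjusted p = 2.59e-05). C5AR1, a receptor for the fragment C5a, rose from a mean of 0.441 to 2.13 CPM (2.28 ± 0.57, adjusted p = 0.0275). It passed in 3 of the 6 fits that left out a library, with log2 changes of 1.77 to 3.32. C5AR2, the other C5a receptor, had means of 1.98 and 0.588 CPM (1.74 ± 0.39, adjusted p = 0.00913) and also passed in 3 of these 6 fits.

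The IL-6 and STAT3 list held the next group of rises. Of its 19 measured members, 7 passed as higher (SOCS3, BCL3, PIM1, LRG1, ICAM1, IL4R and JUNB), 1 as lower (IL6R) and 11 did not pass, with a median log2 change of 0.89 and 16 members above 0. Without hBMSC-CM replicate 3, 7 passed as higher and 0 as lower, and without RPMI replicate 3, 5 passed in all. SOCS3 (ENSG00000184557, minus strand of chromosome 17, bases 78356778 to 78360077), the feedback inhibitor of JAK kinases, was at 47.4, 44.5 and 58.4 CPM in hBMSC-CM and at 2.07, 3.62 and 3.25 CPM in RPMI. The groups lay far apart and each was tight, giving a log2 change of 4.07 ± 0.26 (adjusted p = 4.09e-13). BCL3 (ENSG00000069399, plus strand of chromosome 19, bases 44747705 to 44760044), an IkB-like partner of NF-kB subunits, was at 70.5, 69.7 and 121 CPM against 3.79, 4.11 and 7.88 CPM (4.05 ± 0.34, adjusted p = 2.89e-10). The highest value in each group came from replicate 3, and without hBMSC-CM replicate 3 the log2 change was 3.76. PIM1, a serine/threonine kinase gene that STAT factors activate, was at 192, 127 and 151 CPM against 24.5, 24.5 and 23.9 CPM (2.69 ± 0.24, adjusted p = 9.95e-10). LRG1, a secreted leucine-rich glycoprotein of the acute phase, was the most abundant of these, at 236, 199 and 248 CPM against 52.6, 63.4 and 71.1 CPM (1.87 ± 0.19, adjusted p = 1.90e-08).

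Of the receptor chains of this pathway 1 passed. IL6R, the IL-6 binding chain, was at 101, 109 and 64.5 CPM in hBMSC-CM and at 167, 148 and 135 CPM in RPMI. Its fall was a log2 change of -0.71 ± 0.18 (adjusted p = 0.03), and it was -0.49 (adjusted p = 0.32) without hBMSC-CM replicate 3. IL6ST, the signal-transducing chain gp130, had means of 6.41 and 3.89 CPM and did not pass (0.72 ± 0.47, adjusted p = 0.941). Of the IL-6 family ligands, OSM (oncostatin M), which can itself signal through IL6ST, was at 32.2, 32.7 and 67.2 CPM in hBMSC-CM and at 5.38, 6.92 and 6.66 CPM in RPMI (2.80 ± 0.42, adjusted p = 4.32e-05). Replicate 3 of hBMSC-CM was the highest, and the log2 change without it was 2.38.

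**Figure D2:**
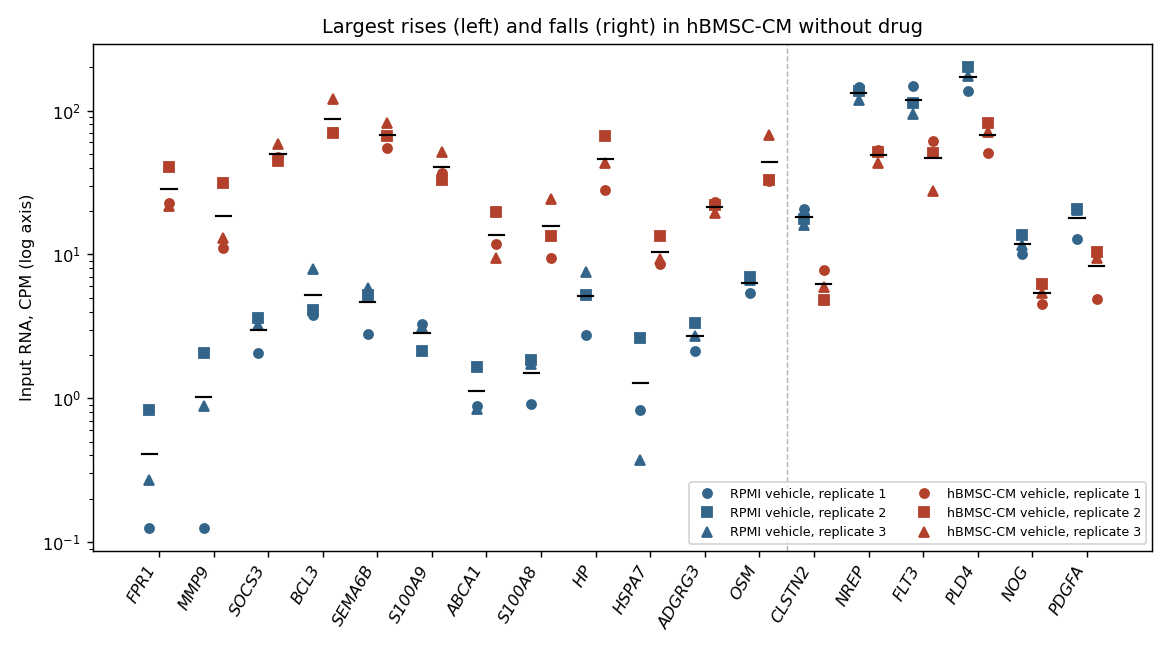
CPM (log axis) of the 12 genes with the largest rise (left) and the 6 with the largest fall (right) in each vehicle input library. RPMI is blue and hBMSC-CM red, circles, squares and triangles are replicates 1, 2 and 3, and lines are group means. The rule that chose the 18 genes required groups that do not overlap. The gap between colours is wider on the left, where FPR1 spans 0.126 to 40.8 CPM.

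Lists of other signalling routes had fewer genes past the test. In the GM-CSF, IL-3 and STAT5 list, 3 of 16 measured members passed as higher (OSM, PIM1 and ID1) and 0 as lower, with a median of 0.28. ID1, an inhibitor of basic helix-loop-helix factors and also a SMAD target, was at 28.3, 21.05 and 39.1 CPM against 8.43, 6.35 and 7.64 CPM (1.98 ± 0.34, adjusted p = 0.000399). CSF2RB, the signalling chain shared by the receptors of GM-CSF and IL-3, had means of 8.77 and 7.88 CPM (0.15 ± 0.38, adjusted p = 1). In the NF-kB list, 4 of 21 passed as higher (BCL3, BCL2A1, ICAM1 and IER3), and 2 without hBMSC-CM replicate 3, hBMSC-CM replicate 2, RPMI replicate 1 or RPMI replicate 2, and 1 without RPMI replicate 3. ICAM1, the ligand of leukocyte integrins, was at 5.72, 8.55 and 6.17 CPM against 2.27, 3.24 and 1.32 CPM (1.57 ± 0.31, adjusted p = 0.00269).

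The AP-1 and EGR list had 2 of 19 members past the test, MAFF and JUNB, and the ERK feedback list 2 of 13, PHLDA1 and IER3, with medians of 0.26 and 0.03. MAFF, a small MAF factor, was near 3 CPM in each hBMSC-CM library and below 1 CPM in each RPMI library (2.04 ± 0.49, adjusted p = 0.0171). PHLDA1, a pleckstrin-homology-like protein, had means of 4.02 and 1.21 CPM (1.74 ± 0.35, adjusted p = 0.00282). JUNB, a subunit of AP-1, was at 149, 155 and 207 CPM against 89.7, 95.8 and 85.1 CPM (0.92 ± 0.20, adjusted p = 0.0091), and was 0.77 (adjusted p = 0.0684) without hBMSC-CM replicate 3. IER3, an early response gene, was 1.27 ± 0.32 (adjusted p = 0.031), and 1.13 (adjusted p = 0.142) without that library. MX2 was the interferon-response gene that passed, 1 of 23 (1.22 ± 0.20, adjusted p = 0.000251), although 20 of the 23 log2 changes were above 0 and their median was 0.49. In the TGF-beta list ID1 was the 1 of 13 that passed. The lists were written with earlier results of these data known, so their counts describe and do not test them.

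Secreted ligands and their receptors followed. Of 21 measured chemokines and cytokines, 3 passed as higher (CCL2, OSM and HBEGF) and 0 as lower, with a median of 0.88. HBEGF, a ligand of the EGF receptor family, was at 64.8, 51.2 and 89.9 CPM in hBMSC-CM and at 17.1, 14.04 and 11.8 CPM in RPMI (2.26 ± 0.42, adjusted p = 0.00109). CCL2, the monocyte chemokine, was low throughout, at 0.992, 0.957 and 3.07 CPM against 0.177, 0.258 and 0.0676 CPM (3.27 ± 0.76, adjusted p = 0.0156). It rested on hBMSC-CM replicate 3, without which the log2 change was 2.51 and the adjusted p 0.163.

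Of 26 measured cytokine and growth factor receptors, 4 passed as higher (IL7R, IL10RA, CSF1R and IL4R) and 2 as lower (FLT3 and IL6R). IL7R, the IL-7 receptor chain, was at 8.35, 6.54 and 7.72 CPM in hBMSC-CM against 0.404, 0.632 and 0.913 CPM in RPMI (3.54 ± 0.65, adjusted p = 0.00098). IL10RA, which binds IL-10 and signals through STAT3, was at 19.2, 27.1 and 12.4 CPM against 4.47, 5.03 and 4.84 CPM (2.03 ± 0.37, adjusted p = 0.000929). CSF1R, the M-CSF receptor of monocytes and macrophages, was at 27.5, 53.2 and 24.7 CPM against 9.44, 19.96 and 18.2 CPM (1.15 ± 0.28, adjusted p = 0.0202). Its groups were separated by a narrow gap, between 19.96 and 24.7 CPM, and it passed in 4 of the 6 fits that left out a library. IL4R, the IL-4 receptor chain, which signals through STAT6, had means of 47.1 and 23.01 CPM (1.03 ± 0.23, adjusted p = 0.00963).

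The pattern recognition and phagocyte receptor list held the largest number of rises among the lists, though not the largest share. In the IL-6 and STAT3 list 7 of 19 rose, and 1.3% of all genes tested passed as higher. Of 30 measured pattern recognition and phagocyte receptors, 9 passed as higher (LILRB3, FCGR2B, CD14, TREM1, SIGLEC7, MARCO, TLR4, SIGLEC9 and LY96) and 0 as lower, with a median of 0.61 and 26 members above 0. The same number passed without hBMSC-CM replicate 3, and 5 without RPMI replicate 1 or RPMI replicate 3. TREM1, an activating receptor of neutrophils and monocytes, was at 6.95, 9.95 and 8.45 CPM in hBMSC-CM and at 0.808, 1.38 and 1.32 CPM in RPMI (2.86 ± 0.48, adjusted p = 0.000309). CD14, the co-receptor for lipopolysaccharide, stayed near 1 CPM, at 0.671, 1.24 and 1.84 CPM against 0.177, 0.287 and 0 CPM (2.94 ± 0.76, adjusted p = 0.0355). It passed in 1 of the 6 fits that left out a library, and without hBMSC-CM replicate 3 it was 2.58 (adjusted p = 0.154). LILRB3 (3.84 ± 0.67, adjusted p = 0.00048) and FCGR2B (3.23 ± 0.71, adjusted p = 0.00778) belong to families with near-identical copies, so their reads may be divided among copies, and both were below 5 CPM in all 6 libraries. Of the others, named after their values were seen, the lipopolysaccharide receptor TLR4 was more abundant, at 31.8, 21.8 and 16.1 CPM against 6.14, 5.66 and 7.34 CPM (1.86 ± 0.24, adjusted p = 2.67e-06). Its accessory protein LY96 had means of 1.68 and 0.514 CPM, and its log2 change of 1.71 ± 0.42 (adjusted p = 0.0219) was 1.22 (adjusted p = 0.291) without hBMSC-CM replicate 3. MARCO, a scavenger receptor of macrophages, was at 20.4, 20.3 and 39.6 CPM against 4.04, 7.81 and 8.76 CPM (1.97 ± 0.28, adjusted p = 2.34e-05). SIGLEC7, an inhibitory receptor for sialic acid, was 2.55 ± 0.32 (adjusted p = 2.53e-06). The values of these 4 genes did not overlap between the groups, as held for 191 of the 195 called genes and 2087 (16.1%) of all genes tested.

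Of 36 measured granule and phagocyte effectors, 7 passed as higher (MMP9, S100A9, VCAN, S100A8, CFP, ANXA1 and CYBB) and 0 as lower, with a median of 0.57 and 33 members above 0. The number was 6 without hBMSC-CM replicate 3, 4 without RPMI replicate 1 or hBMSC-CM replicate 2, and 12 with the replicate number as a block. S100A9, a subunit of calprotectin, was at 37.0, 33.0 and 51.4 CPM in hBMSC-CM and at 3.28, 2.13 and 3.11 CPM in RPMI (3.83 ± 0.41, adjusted p = 6.29e-08). Its partner S100A8 was lower, at 9.37, 13.3 and 24.2 CPM against 0.909, 1.84 and 1.72 CPM (3.40 ± 0.67, adjusted p = 0.00228). Neither overlapped between groups, which the rule for the leading rises required, and both were highest in hBMSC-CM replicate 3. MMP9, a gelatinase of neutrophil granules, varied more, at 11.1, 31.3 and 12.9 CPM against 0.126, 2.07 and 0.879 CPM (4.17 ± 0.84, adjusted p = 0.00285). In both media its highest value was replicate 2, as was that of FPR1. ANXA1, annexin A1, a ligand of formyl peptide receptors, was at 46.3, 67.5 and 43.3 CPM against 11.9, 19.9 and 17.1 CPM (1.68 ± 0.32, adjusted p = 0.00186). CYBB, the catalytic subunit of the phagocyte oxidase, was at 42.2, 58.4 and 46.5 CPM against 15.5, 25.6 and 23.3 CPM (1.19 ± 0.30, adjusted p = 0.0296), and 1.25 (adjusted p = 0.0615) without hBMSC-CM replicate 3. ANXA1 and CYBB were named after their values were seen. VCAN, the proteoglycan versican of monocytes, stayed under 3 CPM in all libraries (3.56 ± 0.92, adjusted p = 0.0351) and passed in 2 of the 6 fits that left out a library. The exons of MMP9 overlap those of an antisense gene, SLC12A5-AS1, and no source used here says if reads were counted by strand.

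The other leading rises fall outside these groups. SEMA6B, a transmembrane semaphorin, was at 54.9, 66.9 and 82.1 CPM in hBMSC-CM and at 2.80, 5.26 and 5.85 CPM in RPMI (3.88 ± 0.31, adjusted p = 1.07e-10). HP, haptoglobin, which binds free haemoglobin, was at 27.8, 66.9 and 43.1 CPM against 2.75, 5.26 and 7.51 CPM (3.16 ± 0.42, adjusted p = 5.88e-06). ADGRG3, an adhesion G protein-coupled receptor of granulocytes, was at 23.2, 22.1 and 19.2 CPM against 2.12, 3.33 and 2.71 CPM (2.98 ± 0.42, adjusted p = 1.74e-05), and its exons overlap a gene on the opposite strand. The groups of all 3 genes lay apart, which the rule for the leading rises required. HSPA7, a pseudogene nearly identical to HSPA6, was 3.02 ± 0.77 (adjusted p = 0.031) and passed in 2 of the 6 fits that left out a library. Without hBMSC-CM replicate 3 its adjusted p was 0.0509, and its reads cannot be assigned with certainty.

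Of 27 measured transcription factors of the myeloid lineage, CEBPE and CEBPB passed as higher, IRF8 as lower and 24 did not pass. Their median was 0.44, with 19 above 0, and with the replicate number as a block 4 passed as higher and 1 as lower. CEBPB, a C/EBP factor of the inflammatory response and of emergency granulopoiesis, was at 50.6, 65.1 and 57.9 CPM in hBMSC-CM and at 24.8, 27.8 and 27.0 CPM in RPMI (1.13 ± 0.20, adjusted p = 0.000533). CEBPE, needed for late granulocyte maturation, was at 7.21, 9.09 and 15.1 CPM against 2.73, 3.56 and 4.73 CPM (1.51 ± 0.29, adjusted p = 0.00209), and 1.17 (adjusted p = 0.0429) without hBMSC-CM replicate 3. IRF8, a factor of the monocyte and dendritic cell path, was at 224, 274 and 175 CPM against 446, 466 and 376 CPM (-0.93 ± 0.19, adjusted p = 0.00269). Its groups did not overlap, but without hBMSC-CM replicate 3 its log2 change was -0.76 and the adjusted p 0.0564.

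Among integrins and adhesion genes, 2 of 21 passed as higher (ICAM1 and PECAM1) and 1 as lower (ITGAL). PECAM1, an adhesion molecule of leukocytes and endothelium, was at 212, 293 and 167 CPM in hBMSC-CM against 81.4, 99.2 and 84.5 CPM in RPMI (1.34 ± 0.22, adjusted p = 0.00019). ITGAL, the alpha chain of LFA-1, which binds ICAM1, was at 172, 280.0 and 215 CPM against 343, 429 and 365 CPM (-0.77 ± 0.21, adjusted p = 0.0456), and passed in 1 of the 6 fits that left out a library, with -0.72 (adjusted p = 0.161) without hBMSC-CM replicate 3. Of 10 measured MHC class II genes 0 passed in edgeR, with a median of 0.55. An unadjusted p under 0.05 was found for 4 of them, beside 970 of all 12939 genes tested. In limma voom 0 passed and in DESeq2 1, and 3 passed as higher with the replicate number as a block, CD86 among them. The log2 changes ran from -0.15 to 3.02, and 8 of the 10 were above 0. CD74, the invariant chain, lay below 0, unlike most of the list, with means of 307 and 340.0 CPM (-0.15 ± 0.35, adjusted p = 1).

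The 27 falls were smaller and included the target of the drug used elsewhere in the study. FLT3 (ENSG00000122025, minus strand of chromosome 13, bases 28003274 to 28100592) was at 61.3, 50.7 and 27.6 CPM in hBMSC-CM and at 147, 113 and 94.6 CPM in RPMI. Replicate 1 was the highest and replicate 3 the lowest in both media. The highest hBMSC-CM value was below the lowest RPMI value, which the rule for the largest falls required. The log2 change was -1.34 ± 0.26 (adjusted p = 0.00219), and -1.05 (adjusted p = 0.0394) without hBMSC-CM replicate 3. It did not pass with the spread taken from the 6 libraries alone (-1.32, adjusted p = 0.0924). The table does not separate transcripts with and without the tandem duplication.

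NREP, a small protein first described in regenerating neurons, was at 53.3, 51.5 and 43.2 CPM against 145, 136 and 119 CPM (-1.44 ± 0.18, adjusted p = 2.97e-06). CLSTN2, a calsyntenin of the cadherin family, was at 7.82, 4.85 and 5.93 CPM against 20.5, 17.7 and 16.0 CPM (-1.54 ± 0.34, adjusted p = 0.00781) and passed in 4 of the 6 fits that left out a library. PLD4, an exonuclease of endolysosomes, was -1.33 ± 0.34 (adjusted p = 0.0317) and PDGFA, a platelet-derived growth factor chain, -1.12 ± 0.29 (adjusted p = 0.0351), and each passed in 2 of these 6 fits. Without hBMSC-CM replicate 3 they were -1.34 (adjusted p = 0.0906) and -1.21 (adjusted p = 0.0735). NOG, the BMP antagonist noggin, was -1.12 ± 0.30 (adjusted p = 0.0394) and passed in 0 of the 6, with -1.10 (adjusted p = 0.154) without hBMSC-CM replicate 3. DPYSL3, a cytoskeletal phosphoprotein named after its values were seen, lay just below the 10 CPM mark in RPMI, at 11.7, 10.6 and 7.10 CPM, and at 1.75, 3.22 and 0.604 CPM in hBMSC-CM (-2.41 ± 0.46, adjusted p = 0.00188).

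Survival genes of the BCL2 family moved in both directions. BCL2 was at 52.2, 43.1 and 47.2 CPM in hBMSC-CM and at 92.2, 80.5 and 76.0 CPM in RPMI (-0.80 ± 0.16, adjusted p = 0.00305). BCL2A1, an NF-kB target that also opposes apoptosis, was at 8.32, 13.3 and 13.97 CPM against 2.52, 3.56 and 2.74 CPM (2.01 ± 0.49, adjusted p = 0.0219), and passed in 1 of the 6 fits that left out a library, with 1.90 (adjusted p = 0.0873) without hBMSC-CM replicate 3. The other 13 of 15 measured members did not pass, MCL1 among them, with means of 148 and 135 CPM (0.13 ± 0.16, adjusted p = 1). In the HOXA-MEIS1 and progenitor list FLT3 fell and CD38, an ectoenzyme gained as progenitors mature, rose (1.16 ± 0.24, adjusted p = 0.00385), while the median of 17 members was -0.10.

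**Figure D3:**
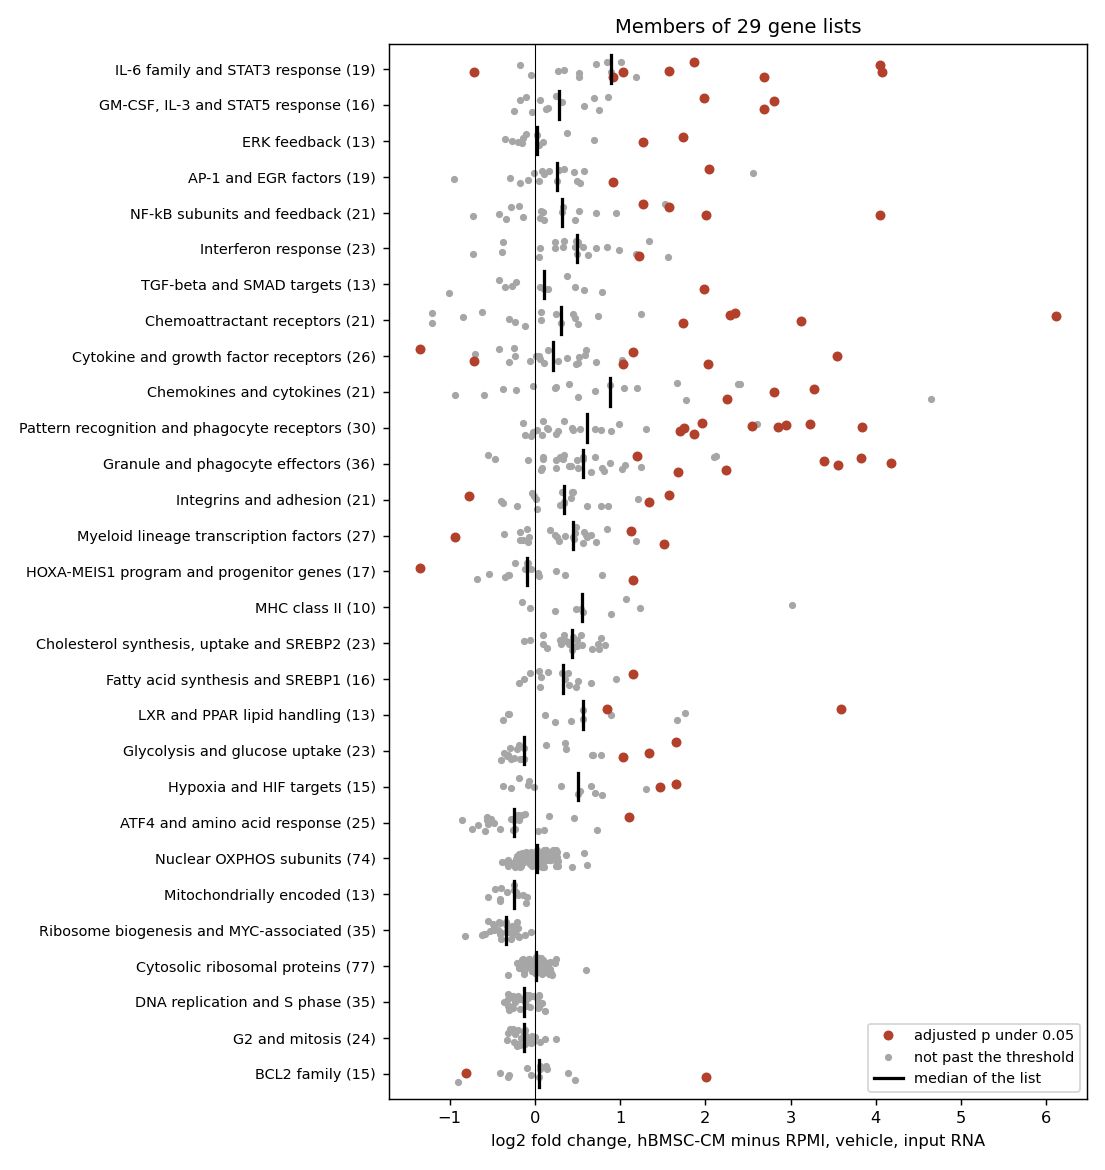
Log2 change between hBMSC-CM and RPMI (horizontal axis) of the measured members of 29 gene lists, 1 row a list, with the number measured in brackets. Red points passed an adjusted p of 0.05, grey points did not, and black lines are list medians. By number, not by share of a row, red points are most numerous in the phagocyte receptor, granule effector and STAT3 rows. They are absent from the ribosomal, respiratory and cell cycle rows.

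Lipid and sugar metabolism had single genes past the test. ABCA1, the exporter of cholesterol and a target of LXR, was at 11.8, 19.6 and 9.37 CPM in hBMSC-CM and at 0.884, 1.64 and 0.846 CPM in RPMI (3.59 ± 0.45, adjusted p = 2.12e-06). MYLIP, the LXR target that degrades the LDL receptor, was at 51.2, 50.5 and 30.6 CPM against 26.7, 22.2 and 24.4 CPM (0.85 ± 0.17, adjusted p = 0.00269). They were the 2 of 13 measured LXR and PPAR genes that passed, with a median of 0.56, and 5 passed with the replicate number as a block. SREBF1, the regulator of fatty acid synthesis, was at 78.8, 105 and 106 CPM against 37.8, 38.1 and 54.7 CPM (1.15 ± 0.21, adjusted p = 0.000902) and was 1 of 16 in its list. Of 23 cholesterol synthesis and uptake genes 0 passed in edgeR, although 21 had a log2 change above 0 (median 0.44). An unadjusted p under 0.05 was found for 7 of the 23, beside 970 of all 12939 genes tested. Calls in limma voom and DESeq2 were 0 as well. SREBF2, the regulator of that list, was 0.29 ± 0.28 (adjusted p = 1).

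In the glycolysis list 3 of 23 members passed as higher, PFKFB4, SLC2A3 and PFKFB3, and the median was -0.13. PFKFB4, a relative of PFKFB3, was 1.66 ± 0.43 (adjusted p = 0.0327), and 1.49 (adjusted p = 0.139) without hBMSC-CM replicate 3. Without RPMI replicate 2, RPMI replicate 3 or hBMSC-CM replicate 1, 1 passed. PFKFB3, which makes the activator of phosphofructokinase, was at 72.7, 90.8 and 48.0 CPM against 32.7, 35.8 and 34.6 CPM (1.04 ± 0.20, adjusted p = 0.00228). The glucose transporter SLC2A3, which shares reads with a near-identical relative, was at 96.8, 68.5 and 81.0 CPM against 39.6, 29.3 and 28.3 CPM (1.34 ± 0.32, adjusted p = 0.0174). DDIT4, an inhibitor of mTORC1 and a HIF target, was at 166, 138 and 209 CPM against 70.7, 62.2 and 53.2 CPM (1.46 ± 0.24, adjusted p = 0.000251). With PFKFB4 it made 2 of 15 hypoxia genes, 4 with the replicate number as a block. SLC7A11, the cystine transporter, was the 1 of 25 ATF4 genes that passed (1.11 ± 0.29, adjusted p = 0.0385, and 0.079 without hBMSC-CM replicate 3).

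The lists of growth genes held no gene past the test in edgeR. MYC was at 605, 422 and 399 CPM in hBMSC-CM and at 577, 453 and 441 CPM in RPMI (-0.04 ± 0.29, adjusted p = 1), so replicate 1 was the highest in both media and the groups overlapped. MTOR (-0.24 ± 0.35, adjusted p = 1) and ATM (-0.07 ± 0.34, adjusted p = 1) did not pass either. Of 35 ribosome biogenesis and MYC-associated genes 0 passed in edgeR, and limma voom called 1 and DESeq2 0. An unadjusted p under 0.05 was found for 4 of the 35, beside 970 of all 12939 genes tested. All 35 had a log2 change below 0 (median -0.33, and -0.39 without hBMSC-CM replicate 3). The groups did not overlap for 17 of the 35, against 2087 (16.1%) of all genes tested. NPM1, a nucleolar chaperone of that list, was at 1455, 1522 and 1557 CPM against 2072, 2311 and 2016 CPM (-0.50 ± 0.36, adjusted p = 1). It passed in the fit of the input libraries alone (-0.51, adjusted p = 0.0135). NCL, nucleolin, had means of 1715 and 2285 CPM (-0.41 ± 0.34, adjusted p = 1). Among 35 replication genes (median -0.12) and 24 mitosis genes (median -0.13) 0 passed in edgeR, limma voom or DESeq2, and 0 had an unadjusted p under 0.05.

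The 77 cytosolic ribosomal proteins (median 0.01) and 74 nuclear OXPHOS subunits (median 0.03) had 0 calls in edgeR, limma voom and DESeq2, with 0 and 2 genes at an unadjusted p under 0.05. Their medians were -0.23 and -0.18 without hBMSC-CM replicate 3. In that library RPL8 was at 9246 CPM, against 5019 and 5346 CPM in the other hBMSC-CM libraries, and COX4I1 was at 1035 CPM, against 536 and 528 CPM. RPMI replicate 3 was also the highest of its group for both, at 8165 and 784 CPM. The 13 mitochondrially encoded messages had a median of -0.25 and 0 calls in the same tools, with 0 at an unadjusted p under 0.05. Without hBMSC-CM replicate 3 the median of these messages was -0.0004. Mitochondrial genes made up 7.05%, 3.19% and 3.17% of the counts in hBMSC-CM and 7.59%, 3.17% and 3.68% in RPMI (37 genes, exact permutation p = 0.6). Replicate 1 was the highest in both media.

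The same cultures were also read as heavy polysome RNA, the messages that sedimented with several ribosomes. In those libraries 176 genes (1.36% of those tested) passed between the media, 159 higher and 17 lower. That count was 33, all higher, with the spread taken from the libraries of the groups compared alone, 112 without RPMI polysome replicate 3, 117 without hBMSC-CM polysome replicate 2 and 350 with the replicate number as a block. Of the 168 genes higher in input, 117 were also called higher there, and of the 27 lower genes 7 were called lower. These 124 genes were 63.6% of the 195 input calls and 70.5% of the 176 polysome calls. The sign was the same for 194 of the 195, and the exception was VMP1, an autophagy protein of the endoplasmic reticulum (0.83 ± 0.18 in input and -0.05 ± 0.18 in polysomes). The median polysome log2 change was 1.40 for the higher genes and -0.72 for the lower genes, beside -0.04 over all genes. Both fractions come from 1 set of cultures, so these values are not a second set of cultures.

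FPR1 (6.10 ± 0.46, adjusted p = 2.48e-11), SOCS3 (4.02 ± 0.26, adjusted p = 4.68e-13) and BCL3 (3.68 ± 0.34, adjusted p = 2.41e-09) had polysome log2 changes close to their input values. That of FLT3 was -1.10 ± 0.26 (adjusted p = 0.0204). IRF8, at -0.60 ± 0.19 (adjusted p = 0.112), and JUNB, at 0.70 ± 0.20 (adjusted p = 0.0785), did not pass in polysomes. In the test of the polysome change minus the input change 0 genes passed in edgeR, with 211 at an unadjusted p under 0.05, while limma voom gave 0 and DESeq2 1. Of the 195 genes 7 had such an unadjusted p.

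The medium was also compared in cells given quizartinib. Those libraries give none of the vehicle means but share the estimate of the spread. There 1056 genes (8.16%) passed between hBMSC-CM and RPMI. Of the 168 genes higher under vehicle, 127 were called higher again, and of the 27 lower genes 24 were called lower. These 151 genes were 77.4% of the 195 vehicle calls and 14.3% of the 1056 quizartinib calls. The sign was the same for 189 of the 195, and the median log2 change under quizartinib was 1.51 for the higher genes and -1.23 for the lower genes, beside -0.03 over all genes. BMP8B, a ligand of the BMP family named after its values were seen, was called in both with opposite signs, at -1.11 ± 0.20 under vehicle and 0.75 ± 0.20 under quizartinib. Its exons overlap those of PPIE on the other strand.

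A test of the difference itself found that the medium effect under quizartinib was unlike that under vehicle for 254 genes (1.96%), 11 of them among the 195. PIM1 had a larger medium effect under quizartinib (log2 change 5.27, against 2.69 under vehicle, difference 2.58 ± 0.33, adjusted p = 5.84e-06), as did IER3 and SLC2A3. BCL3 had a smaller one (2.36 against 4.05, difference -1.70 ± 0.43, adjusted p = 0.0272). The level of BCL3 in RPMI was 49.1 ± 17.6 CPM (mean ± SD, n = 3) under quizartinib and 5.26 ± 2.28 CPM under vehicle. In RPMI, IER3 averaged 3.11 CPM under quizartinib and 16.6 CPM under vehicle, and in hBMSC-CM 44.3 and 39.9 CPM. SLC2A3 averaged 11.6 and 32.4 CPM in RPMI and 110 and 82.1 CPM in hBMSC-CM, in the same order.

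The level of the leading genes over all 7 input conditions is given as a description. FPR1 averaged 0.410, 0.423 and 0.429 CPM in RPMI with vehicle, quizartinib and combo, and 28.4, 70.4, 39.6 and 68.2 CPM in hBMSC-CM with vehicle, quizartinib, everolimus and combo. Its level was below 1 CPM in RPMI under each treatment. SOCS3 averaged 2.98, 4.20 and 2.46 CPM in RPMI and 50.1, 132, 74.4 and 142 CPM in hBMSC-CM, in the same order. PIM1 was at 5.999 ± 0.531 CPM in RPMI under quizartinib and at 24.3 ± 0.319 CPM under vehicle, and in hBMSC-CM its means were 157, 232, 223 and 290.2 CPM. FLT3 averaged 118, 245 and 228 CPM in RPMI and 46.6, 53.1, 50.8 and 63.5 CPM in hBMSC-CM, so its highest hBMSC-CM mean lay below its lowest RPMI mean. IRF8 averaged 429, 275 and 228 CPM in RPMI and 225, 168, 258 and 131 CPM in hBMSC-CM. Its mean was lower in hBMSC-CM in each treatment given in both media, and the media overlapped only across unlike treatments.

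**Figure D4:**
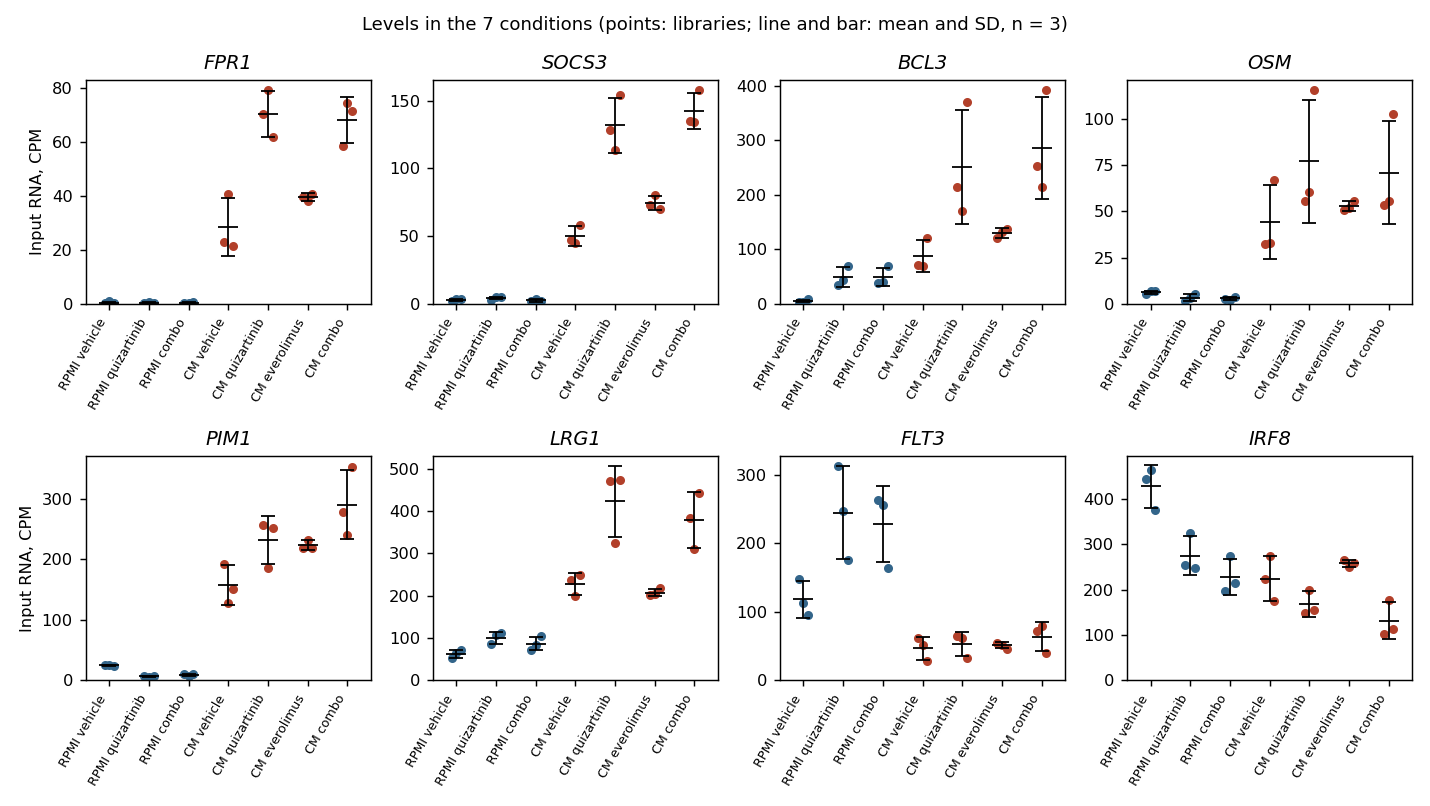
CPM of FPR1, SOCS3, BCL3, OSM, PIM1, LRG1, FLT3 and IRF8 in the 7 input conditions, 3 in RPMI and 4 in hBMSC-CM. Points are libraries, and markers with bars are the mean ± SD of 3. FPR1 and SOCS3 are low in all RPMI conditions. FLT3 and IRF8 are higher in RPMI than in hBMSC-CM in each treatment given in both media. IRF8 overlaps between media only across unlike treatments.

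Over the 21 input libraries, the 5 genes whose log2 CPM followed FPR1 most closely, of 8637 compared, were SOCS3 (Pearson's r = 0.984), FGR (0.969), ADGRG3 (0.967), HP (0.966) and CD99L2 (0.963). The points share the medium as their main division, and no test was made. FGR, a SRC family kinase of myeloid cells, was at 37.1, 34.4 and 34.9 CPM in hBMSC-CM and at 6.06, 7.67 and 7.61 CPM in RPMI with vehicle (2.32 ± 0.35, adjusted p = 5.03e-05).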

How the data were processed

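MOLM-13 cells were read as input and heavy polysome RNA in 7 conditions with 3 replicates each (42 libraries). Labels and the study's methods state poly(A) libraries, paired reads on a NovaSeq6000, trimming with BBDuk and alignment to hg38 (Ensembl release 96) with STAR 2.6.0a. The authors deposited raw counts per gene, without normalization or filter. The study states that replicates are biological. Whether the counting used strand is not given in the sources used here. Poly(A) counts without molecular identifiers measure shares of reads, not molecules, and floors cover counting error only.

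The table held 58884 rows, 25133 of them without a count. Rows sharing a name (150 names) were summed, and the 12939 genes whose counts and CPM both averaged 1 or more across the series were tested (99.8% of the counts). All 42 libraries entered 1 robust quasi-likelihood fit in edgeR 4.0.16 (R 4.3.3) with TMM factors and 14 group means (the study names no block), and p was adjusted by Benjamini-Hochberg. The common biological coefficient of variation was 0.279. CPM are TMM-scaled, marker sums are per library total, ± after a log2 change is its SE, and the floor was 3 counts. Gene positions and biotypes were matched by identifier to GENCODE v44, whose GRCh38 assembly is hg38.

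Replicate numbers pair the libraries: deviations from the group means correlated at 0.577, 0.404 and 0.430 between same-numbered libraries of the media, and at -0.420 to -0.0750 between others. Deviations within a group cancel out over its replicates, so the negative values follow in part from the positive ones. The main fit and the permutation tests did not use the pairing. This pairing was read from the data, with the labels giving the number alone. No pair within the 2 groups compared differed by as little as sampling noise.

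Genes were named by rule: the 12 largest rises and 6 largest falls among called genes that reached 10 CPM on average in a group and did not overlap, up to 4 called members of each list by size of change (or the 2 most abundant where none passed), FLT3, MYC, MCL1, ATM, MTOR, CSF2RB, IL6ST and SOCS3, and the 5 genes most like FPR1. Members and lists were chosen with earlier results of these data known. Alternatives were limma voom (limma 3.58.1), DESeq2 1.42.0, RLE factors, library size only, no filter, a filter at 10 CPM, fewer libraries in the fit, replicate blocks, and each library left out.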

Additional observations from a re-analysis of the deposited data

Results flagged for a closer look

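For 11 of the 195 genes called between the media under vehicle, the medium effect under quizartinib differed from that under vehicle by edgeR's test of the difference (Benjamini-Hochberg adjusted over 12939 genes). Each difference contains the vehicle value, so it is not independent of the vehicle call. Of the 11 differences 8 were positive and 3 negative.

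THBS1, the matrix glycoprotein thrombospondin 1 and the one stromal marker that was called, had a difference of 6.03 ± 1.56 on the log2 scale (4.25 under vehicle and 10.27 under quizartinib, adjusted p = 0.0352). Its counts under vehicle were low, at 2.51, 1.98 and 1.10 CPM in hBMSC-CM and 0.126, 0.144 and 0 CPM in RPMI, and its exons overlap genes on the other strand. Under quizartinib it was at 6.17, 4.27 and 4.56 CPM in hBMSC-CM and at 0 in all 3 RPMI libraries, so 10.27 and the difference are fitted values over a group without counts and give no bound on their size. The kinase gene PIM1 had a difference of 2.58 ± 0.33 (2.69 and 5.27, adjusted p = 5.84e-06) and the early response gene IER3 one of 2.56 ± 0.46 (1.27 and 3.83, adjusted p = 0.000914). GGT5, a gamma-glutamyl transferase relative, differed by 2.30 ± 0.57 (2.59 and 4.89, adjusted p = 0.0233), the glucose transporter SLC2A3 by 1.90 ± 0.45 (1.34 and 3.24, adjusted p = 0.0144), and BMP8B by 1.86 ± 0.28 (-1.11 and 0.75, adjusted p = 0.000111). KSR1, a scaffold of the ERK cascade, differed by 0.88 ± 0.23 (0.62 and 1.498, adjusted p = 0.0308) and GLIPR2 by 0.865 ± 0.22 (1.55 and 2.42, adjusted p = 0.0269).

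The negative differences were those of MYLIP at -0.919 ± 0.24 (0.85 and -0.07, adjusted p = 0.0308), BCL3 at -1.70 ± 0.43 (4.05 and 2.36, adjusted p = 0.0272) and YPEL3 at -1.85 ± 0.39 (1.06 and -0.80, adjusted p = 0.00567). GGT5, BMP8B, KSR1, GLIPR2 and YPEL3 are named here because their difference passed, after their values were seen. KSR1 and YPEL3 each passed under vehicle in 1 of the 6 fits that left out a library.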

How the results depend on the processing

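Values that moved by over 1.5 times are given here, and the cause was not tested. The 195 genes called between the media in input were 293 in DESeq2, 105 with the libraries of the groups compared alone and 367 with the input libraries alone, and 105 to 165 when 1 library was left out. The 176 called in polysomes were 290 in DESeq2, 107 in limma voom, 285 without a filter on low counts, 33 with the groups compared alone, 106 with the polysome libraries alone, and 112 to 172 when 1 library was left out. The 0 called for polysome relative to input were 1 in DESeq2 and 1 without a filter. The 1056 called under quizartinib were 2018 with the input libraries alone, and 705 to 892 when 1 library was left out. The 254 differences between quizartinib and vehicle were 415 with the groups compared alone and 740 with the input libraries alone, and 173 to 242 when 1 library was left out.

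Using the pairing as a replicate block gave 373 calls in input, 350 in polysomes and 455 differences, 544, 1230 and 2040 with the groups compared alone (4786 under quizartinib), and 585, 643 and 876 with a block within each fraction (2275 under quizartinib). Of the named genes, the block over all libraries brought CD86 and NKG7 past the threshold and changed no other call.

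Some named genes that passed in the full set did not without 1 library. Without hBMSC-CM replicate 3 these were HSPA7, PLD4, NOG, PDGFA, IER3, JUNB, BCL2A1, CCL2, CD14, ITGAL, IRF8, PFKFB4, SLC7A11 and IL6R. Without hBMSC-CM replicate 2 or replicate 1 there were 13 and 9, and without RPMI replicates 1, 2 and 3 there were 19, 18 and 18, CSF1R, C5AR1, FCGR2B, VCAN, MAFF, SLC2A3, KSR1, YPEL3 and CLSTN2 among those lost in at least 1 of these fits. With the groups compared alone 22 did not pass, FLT3, CEBPE and BCL2 among them (FLT3 adjusted p from 1.39e-08 to 0.0924 over its alternatives). Under these alternatives no named gene past the threshold changed sign. Small lists (AP-1, ERK feedback, integrins, hypoxia, ATF4, BCL2 family) lost 1 or 2 of their calls without 1 library.

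Genes that did not pass and lay near 0 changed sign. MYC was 0.0155 with library size only and -0.25 to 0.0905 when 1 library was left out, ATM -0.15 to 0.0717, CSF2RB -0.20 to 0.43, COX4I1 -0.30 to 0.25, MT-CO1 -0.58 to 0.41, MT-ND4 -0.88 to 0.40, RPL13A -0.22 to 0.27, MKI67 -0.22 to 0.0508 and CD79A -1.19 to 0.14. RPL8 was 9.96e-05 with library size only, 0.00448 with the filter at 10 CPM and -0.35 to 0.13 when 1 library was left out. CENPF was 0.0018 in DESeq2 and with RLE factors, 0.044 with library size only, 0.0012 with the groups compared alone, 0.029 with the replicate block, 0.021 with the filter at 10 CPM and -0.0779 to 0.12 when 1 library was left out.

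With 3 libraries a group, a single exact permutation test cannot pass 0.05, and genes under 1 CPM in RPMI carry the largest errors.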

Other observations

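Some called genes were close to absent in RPMI and are described here after their values were seen. TGM2, tissue transglutaminase, had 86, 85 and 36 counts (2.51, 2.71 and 0.945 CPM) in hBMSC-CM and 0 counts in each RPMI library, which makes it at least 23.4-fold higher by a floor of 3 counts per RPMI library. Its exons overlap RPRD1B on the other strand. GZMB, granzyme B, a protease of cytotoxic lymphocytes that some myeloid and dendritic cells also make, was at 1.05, 3.60 and 1.13 CPM in hBMSC-CM, and the RPMI libraries together held 2 counts of it, both in replicate 2 (edgeR adjusted p = 4.06e-05). NKG7, another cytotoxic granule gene, was at 60.5, 110.1 and 95.2 CPM against 24.0, 47.3 and 34.0 CPM. GNLY, a further such gene, had 17, 48 and 11 counts in hBMSC-CM and 0, 11 and 4 in RPMI. Of the T cell markers, CD3G was at 0 in all 6 libraries, and CD3D had 30, 35 and 1 counts against 0, 37 and 10. The groups of NKG7 did not overlap, and its adjusted p was 0.233, and 0.0027 in the fit with a replicate block.

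The 168 higher genes held 8 lncRNAs and 2 pseudogenes and the 27 lower genes 1 lncRNA, beside 865 lncRNAs and 1157 pseudogenes among the 12939 genes tested. Of the 168, 53 stood in one of the gene lists and 115 in none.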
